A study of Mus musculus with 9 samples.

Results

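Complement is a set of blood proteins and cell receptors that mark microbes, dead cells and immune complexes for removal. The 36 genes described here are 9 components and receptors made by macrophages and other myeloid cells, 23 plasma components and regulators made mainly by hepatocytes, and 4 genes of other or mixed sources. They were chosen by symbol from a list of complement genes, with earlier results of these data known. Counts of them set beside shares of all genes therefore describe the chosen genes and are no independent test. All 36 were found among the 17442 genes of the deposited table. Each passed the filter for testing, a mean of 10 or more normalised reads over the 9 livers, as did 12937 genes in all.

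The livers came from 5 male mice labelled Msr1-/- and 4 male wild-type (Msr1+/+) mice of the strain C57BL/6, each giving 1 library. Msr1 encodes macrophage scavenger receptor 1, a surface receptor that binds modified lipoproteins. All 9 mice, controls included, were kept on food high in fat and cholesterol over 16 weeks and carry the label of non-alcoholic fatty liver disease, and no mice on another diet were analysed here. The labels give neither the age of the mice nor how the Msr1 allele was made.

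Activation starts along the classical, lectin or alternative route. In the classical route C1q binds its target and activates the proteases C1r and C1s, while in the lectin route collectins and ficolins act with the MASP proteases. All routes cleave C3, and the terminal components C5 to C9 then form a pore in the target membrane. Hepatocytes supply most of the plasma proteins, whereas C1q is made by macrophages, in the liver chiefly by Kupffer cells, its resident macrophages.

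Read totals lay between 15006773 and 18238932 per liver. Values below are normalised read counts, the number of reads of a gene divided by a size factor for its liver, and log2 fold changes were computed after adding 1 to each value, so those of genes with few reads are understated. A gene was called at a limma adjusted p under 0.05, adjusted over all 12937 genes. Msr1 itself stood at 156.8, 152.7, 209.1, 185.9 and 172.3 in the livers labelled Msr1-/-, against 255.6, 201.5, 460.5 and 194.5 in wild type (limma adjusted p = 0.264). Msr1 reads were thus present in every liver and the groups overlapped, so gene totals do not check the genotype clearly, and every direction below rests on the labels. Wild type 3 stood apart from the other livers, at -88.7 on the first principal component (41.0% of the variance) where the others lay between -8.30 and 27.6. Results that rest on it are given with and without it.

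Complement genes of myeloid cells stood lower in livers labelled Msr1-/-, while those of hepatocytes lay on both sides of 0. All 9 myeloid-made genes had a negative log2 fold change, with a median of -0.93, and 7 of the 9 were lower in each liver labelled Msr1-/- than in any wild-type liver, where 3.99% of all tested genes did this. C5ar1, among these 7, passed the filter only through wild type, averaging 7.93 in the livers labelled Msr1-/- against 24.98 in wild type. The 23 hepatocyte-made genes had 12 negative and 11 positive log2 fold changes, with a median of -0.03, beside a median of 0.02 over all tested genes. In limma 2 members fell, C1qa and the properdin gene Cfp, where 0.703% of all tested genes were called lower. The factor D gene Cfd rose, where 0.665% were called higher, and 33 members were not called.

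The number of members called depended on the tool and on wild type 3. In edgeR 0 members were called higher and 2 lower, the same C1qa and Cfp, where 0.572% and 0.858% of all tested genes were called. In DESeq2 2 members were called higher (Cfd and C1rl) and 8 lower, all of them myeloid-made, where 2.37% and 3.6% of all tested genes were called. With array weights, which give an atypical library less weight, limma called 1 member higher and 8 lower, where 2.14% and 1.96% of all tested genes were. Without wild type 3, limma called Cfd higher (2.59% of all tested genes) and 10 members lower (2.32%), 7 of them myeloid-made and the others C2, Hc and C8b. Then 10 members stood lower in each liver labelled Msr1-/- than in any wild-type liver and 2 stood higher, where 6.71% and 7.46% of all tested genes did.

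**Figure D1:**
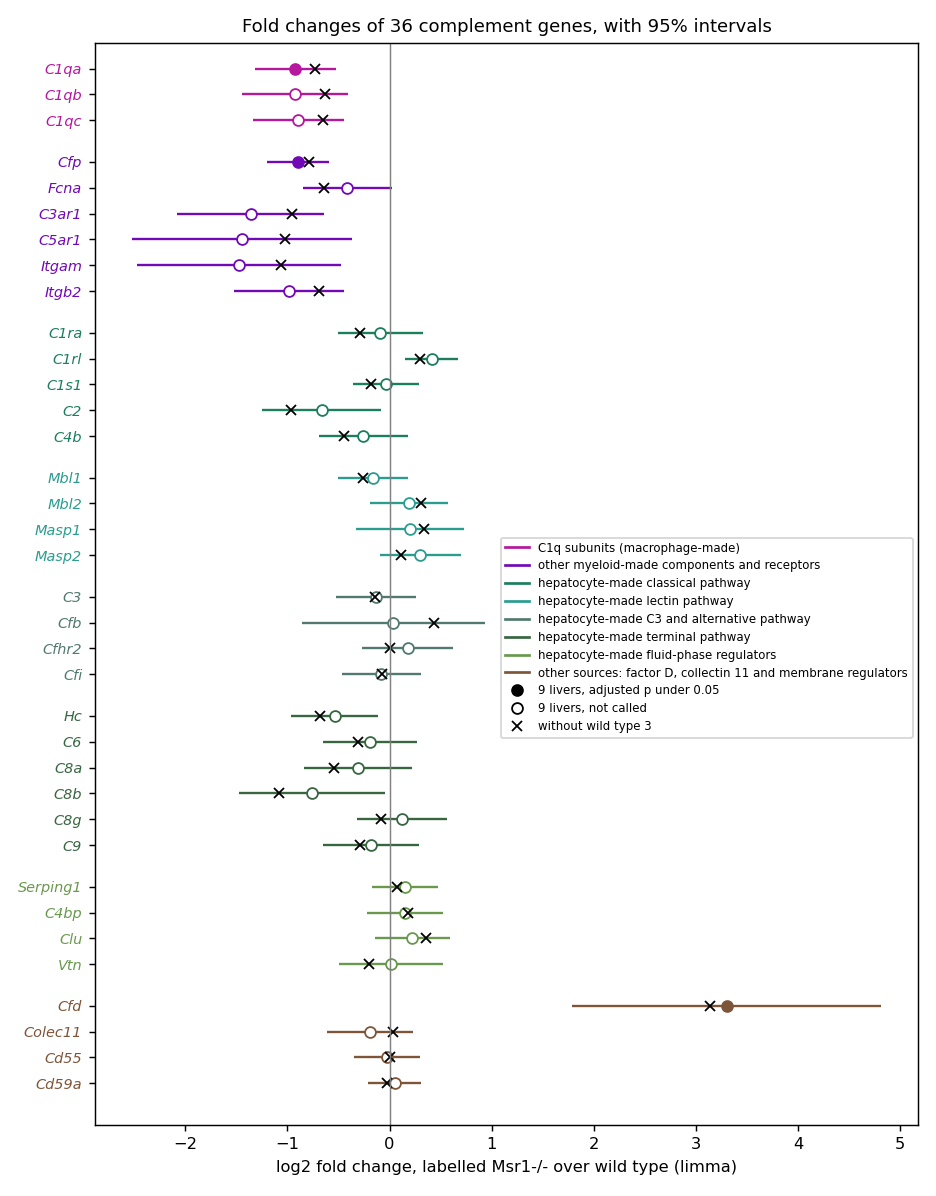
Log2 fold change of the 36 complement genes in livers labelled Msr1-/- over wild type (horizontal axis), with limma 95% intervals, 1 gene per row, coloured by source and role. Filled points were called (C1qa, Cfp and Cfd), open points were not, and crosses give the value without wild type 3. The 9 myeloid-made genes at the top all lie left of 0, between -1.47 and -0.41, while the hepatocyte-made genes lie on both sides.

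C1q is built from equal numbers of A, B and C chains, and all 3 genes were lower in each of the livers labelled Msr1-/- than in any wild-type liver. C1qa stood at 688.9, 919.9, 753.4, 689.9 and 688.3 in the livers labelled Msr1-/-, against 1300.3, 1269.2, 2124.4 and 1127 in wild type. C1qa fell 1.90-fold (log2 fold change -0.92 ± 0.18 SE, limma adjusted p = 0.0355). C1qb stood at 731.2, 844.5, 670.3, 743.7 and 654.2 in the livers labelled Msr1-/-, against 1260.8, 1115.1, 2543.3 and 1012.2 in wild type (log2 fold change -0.93 ± 0.23 SE, limma adjusted p = 0.0803). Wild type 3 held the highest level of each C1q gene. C1qc stood at 684.6, 759.4, 608.2, 582.3 and 590.1 in the livers labelled Msr1-/-, against 1110, 1014.9, 1957.3 and 911.7 in wild type (log2 fold change -0.89 ± 0.20 SE, limma adjusted p = 0.0575). Without wild type 3 all 3 genes were called, with limma adjusted p of 0.00916 for C1qa, 0.0140 for C1qb and 0.0134 for C1qc and folds of 1.65, 1.55 and 1.57. C1qa was called in 2 of the 9 fits with 1 liver left out, those without wild type 3 and wild type 4, and its limma adjusted p reached 0.0922 in the others.

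The 3 chains kept nearly the same proportions in every liver. Per kilobase of exon, C1qa made up 37.3% ± 1.8 of the C1q reads in the livers labelled Msr1-/-, against 37.5% ± 2.5 in wild type (SD, n = 5 and n = 4). C1qb made up 34.8% ± 1.6 in the livers labelled Msr1-/-, against 35.1% ± 2.6 in wild type. C1qc made up 27.9% ± 1.3 in the livers labelled Msr1-/-, against 27.4% ± 0.3 in wild type. For C1qa and C1qb the difference between the genotypes was smaller than the SD of either group. For C1qc it was smaller than the SD in the livers labelled Msr1-/- but larger than that in wild type. In wild type 3 the share of C1qb was the highest of the 9 livers, at 38.9%, and that of C1qa the lowest, at 34.0%.

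C1qa, C1qc and C1qb lie next to each other on the minus strand of chromosome 4, within 18.7 kb (136880129 to 136898803 in mm10, gene bounds of GENCODE M21). The bases before the transcription start are shown for C1qb and C1qc because these neighbours stood lower together, for Cfp because it had the smallest p of the members, and for Cfd because it moved the opposite way. The sequences are RefSeq's for GRCm38.p6, 5′ to 3′ on the strand of the gene. They stop at the first exon base annotated in GENCODE M21. For C1qc this left out the 151 bases nearest the RefSeq start, so the 99 bases shown are those farthest from it. Capitals mark each match, on either strand, to GAGGAA, the core of the sites bound by PU.1, a transcription factor of myeloid cells.
C1qb (chr4:136886201-136886450, minus strand): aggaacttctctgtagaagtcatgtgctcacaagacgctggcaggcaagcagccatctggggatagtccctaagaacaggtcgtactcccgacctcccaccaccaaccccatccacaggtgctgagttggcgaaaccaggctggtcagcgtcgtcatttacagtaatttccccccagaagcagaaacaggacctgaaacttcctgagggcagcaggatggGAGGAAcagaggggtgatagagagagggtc
C1qc (chr4:136893066-136893164, minus strand): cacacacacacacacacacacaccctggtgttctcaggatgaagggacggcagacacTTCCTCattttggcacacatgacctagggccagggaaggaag
Cfp (chrX:20931556-20931805, minus strand): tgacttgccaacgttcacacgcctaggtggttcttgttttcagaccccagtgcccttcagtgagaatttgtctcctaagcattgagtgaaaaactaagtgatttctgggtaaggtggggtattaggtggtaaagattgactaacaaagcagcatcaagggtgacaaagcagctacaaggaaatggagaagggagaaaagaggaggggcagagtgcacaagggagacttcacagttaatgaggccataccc
Cfd (chr10:79890603-79890852, plus strand): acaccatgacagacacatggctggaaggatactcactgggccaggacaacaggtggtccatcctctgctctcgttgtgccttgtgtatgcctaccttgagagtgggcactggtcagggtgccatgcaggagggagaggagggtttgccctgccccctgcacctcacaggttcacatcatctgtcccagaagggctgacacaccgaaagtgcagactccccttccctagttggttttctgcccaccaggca
Promoters were matched for 27 of the 36 members, 7 of them myeloid-made and 16 hepatocyte-made, and C1qa, C2, C4b, Cfb, Cfi, Clu, Itgb2, Masp1 and Serping1 are named only. Within 250 bases before the RefSeq start, GAGGAA occurred in 4 of the 7 myeloid-made promoters (C1qb, C1qc, Fcna and Itgam), in 0 of the 16 hepatocyte-made ones and in 23.1% of 27025 promoters of all genes. The motif was chosen after the values of the genes were seen, and a match describes letters in this window and not binding.

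Properdin, the product of Cfp, stabilises the alternative pathway convertase and is released by neutrophils, monocytes and macrophages. Cfp (chromosome X, 20925454 to 20931555, minus strand) stood at 372, 429.6, 453.8, 449 and 331.6 in the livers labelled Msr1-/-, against 663, 726.9, 935.9 and 715.3 in wild type. The groups did not overlap, and wild type 3 was again the highest. Cfp fell 1.86-fold (log2 fold change -0.90 ± 0.14 SE, limma adjusted p = 0.0160). Cfp was called in 7 of the 9 fits with 1 liver left out, the exceptions being those without Msr1-/- 1 and Msr1-/- 2 (limma adjusted p up to 0.0513).

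The receptors for the activation fragments C3a and C5a, which draw and activate myeloid cells, stood lower but did not pass the threshold. The C3a receptor gene C3ar1 stood at 37.1, 38.2, 36.5, 43.3 and 30.1 in the livers labelled Msr1-/-, against 72.7, 64.4, 223.6 and 80.6 in wild type (log2 fold change -1.36 ± 0.33 SE, limma adjusted p = 0.0686). C3ar1 was called when wild type 3 was left out, with a log2 fold change of -0.96 (limma adjusted p = 0.0145). The C5a receptor gene C5ar1 had few reads, between 2.74 and 11.7 in the livers labelled Msr1-/- and between 12.8 and 51.8 in wild type (log2 fold change -1.44 ± 0.49 SE, limma adjusted p = 0.186).

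Itgam and Itgb2 encode the chains of complement receptor 3, which binds the C3 fragment iC3b. Itgb2, whose product also pairs with other integrin alpha chains, stood at 88, 79.3, 87.7, 65.5 and 74.1 in the livers labelled Msr1-/-, against 124, 127.7, 286.3 and 130.9 in wild type. The groups did not overlap (log2 fold change -0.98 ± 0.24 SE, limma adjusted p = 0.0763). With wild type 3 left out, Itgb2 had a log2 fold change of -0.69 and was called (limma adjusted p = 0.0229). Itgam stood at 14.8, 14.7, 8.22, 7.02 and 7.01 in the livers labelled Msr1-/-, against 25.7, 12.7, 69.8 and 30.4 in wild type. Here wild type 2 fell within the range of the livers labelled Msr1-/- (log2 fold change -1.47 ± 0.45 SE, limma adjusted p = 0.145). The annotation places 68.7% of Itgam exon bases under a second gene on the same strand, Gm49368, so the counting may have split or dropped reads there.

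Ficolin A, the product of Fcna, is a soluble pattern receptor of the lectin route that mouse macrophages make. Fcna stood at 564.9, 531.4, 547, 596.4 and 511.9 in the livers labelled Msr1-/-, against 952.8, 924.2, 451.9 and 719.1 in wild type. Wild type 3 held the lowest Fcna of all 9 livers and the highest level of each of the other 8 myeloid-made genes. The log2 fold change was -0.41 ± 0.20 SE (limma adjusted p = 0.355), and -0.64 without wild type 3, where Fcna was called (limma adjusted p = 0.0128). In all, 7 of the 9 myeloid-made genes were called lower without wild type 3, while C5ar1 and Itgam were not. An antisense gene, Fcnaos, covers 6.55% of Fcna exon bases.

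**Figure D2:**
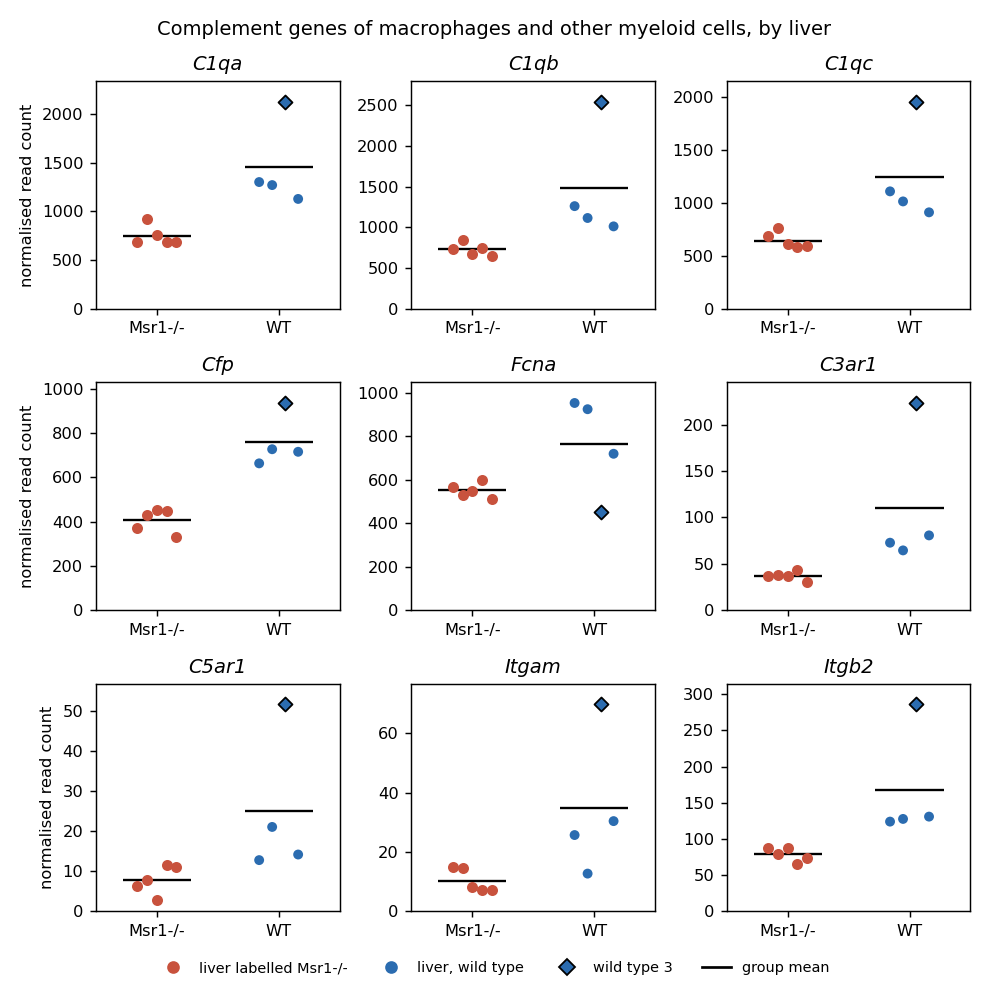
Normalised read count (vertical axis, from 0) of the 9 myeloid-made complement genes in each liver labelled Msr1-/- (left) and each wild-type liver (right), with the group mean as a line and wild type 3 as a diamond. The groups do not overlap for 7 genes, and overlap for Fcna and Itgam. Wild type 3 is the highest liver for every gene but Fcna, where it is the lowest.

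Macrophage markers stood lower together with these genes. Of 16 Kupffer cell and macrophage markers 15 had a negative log2 fold change (median -0.93) and 2 fell, the transcription factor gene Spic and Mpeg1, which encodes a pore-forming protein of macrophages (limma adjusted p = 0.0307 and 0.0491, called in 3 and 2 of the 9 fits with 1 liver left out). Without wild type 3, limma called 6 members of this list lower (median -0.70). On all 9 livers edgeR called 2 lower and DESeq2 called 11. Of all tested genes, 2.32%, 0.858% and 3.6% were called lower in these fits, in that order. The summed level of the markers lay between 7591 and 10241 in the livers labelled Msr1-/- and between 11173 and 26232 in wild type. Without wild type 3 the wild-type range reached 15380.3, and no marker was at 0 in any liver. In bulk liver, fewer macrophages and less RNA per macrophage cannot be told apart. The ratio of C1qa to Clec4f, a marker of Kupffer cells, lay between 0.454 and 0.619 in the livers labelled Msr1-/- and between 0.493 and 1.15 in wild type, so the groups overlapped. Of the neutrophil markers S100a8, S100a9 and Csf3r could be tested. All 3 had a negative log2 fold change (median -1.43), with 0 called in limma, 3 at an unadjusted p under 0.05, 1 called in edgeR and 3 in DESeq2. Over all 12937 tested genes, 1980 had an unadjusted p under 0.05 in limma. The summed neutrophil level lay between 59.1 and 121.9 in the livers labelled Msr1-/- and between 140.4 and 298.1 in wild type. The markers Camp, Retnlg, Elane and Cxcr2 had too few reads to be tested. Camp was at 0 in 4 of the livers labelled Msr1-/-, Retnlg in 2 of them and in 1 wild-type liver, and Elane in 1 of them. Elane averaged 3.59 in the livers labelled Msr1-/-, against 3.58 in wild type. Camp averaged 0.70 against 1.62, and its highest value, 3.51, was in Msr1-/- 4. Retnlg averaged 1.38 against 5.16, and Cxcr2 2.81 against 8.27. Of 10 hepatic stellate cell markers 9 had a negative log2 fold change (median -0.34, or -0.18 without wild type 3). Of 5 tested dendritic cell markers 4 did (median -0.46, or -0.50 without that liver). Each of these lists had 0 called in limma, edgeR or DESeq2 and 2 at an unadjusted p under 0.05 in limma. The 8 liver endothelial markers had a median of -0.02, with 0 called in limma, edgeR or DESeq2 and 0 at an unadjusted p under 0.05. The part of any of these cell types in the results was not tested.

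In the classical route below C1q, none of the hepatocyte-made genes was called on all 9 livers in limma. C1ra and C1s1 encode the proteases that C1q activates. C1ra averaged 2950 ± 333 in the livers labelled Msr1-/-, against 3235 ± 919 in wild type, and C1s1 averaged 5195 ± 317 in the livers labelled Msr1-/-, against 5398 ± 1089 in wild type (SD). Their log2 fold changes were -0.09 (95% interval -0.51 to 0.33) and -0.03 (-0.36 to 0.29). C1ra and C1s1 have close copies in the genome, and an antisense gene covers 18.4% of C1s1 exon bases, so their counts are uncertain. The ratio of C1qa to C1s1 reads lay between 0.124 and 0.191 in the livers labelled Msr1-/-. In wild type it lay between 0.198 and 0.548, or up to only 0.223 without wild type 3. The groups did not overlap, as they did not for C1qa alone. C4b, which encodes the C4 that C1s cleaves, averaged 9594 ± 457 in the livers labelled Msr1-/-, against 11921 ± 3876 in wild type (log2 fold change -0.26, interval -0.69 to 0.18). C4b and its near copy C4a can share reads, so the counts of both are uncertain.

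C2, the protease partner of C4, stood at 334.9, 399.3, 381.7, 499.3 and 526 in the livers labelled Msr1-/-, against 879, 973.8, 360.9 and 652.7 in wild type. Wild type 3 lay among the livers labelled Msr1-/-, and the other 3 wild-type livers above all of them (log2 fold change -0.67 ± 0.26 SE, limma adjusted p = 0.254). With that liver left out the log2 fold change was -0.96 and C2 was called (limma adjusted p = 0.0118). The annotation places 42.8% of C2 exon bases, and 79.5% of those of the neighbouring factor B gene Cfb, under a longer gene on the same strand, Gm20547. Cfb stood at only 10.4 to 43.1 per liver, and the levels of both genes are uncertain for that reason.

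C1rl, which encodes a C1r-like protease of the liver, was the 1 hepatocyte-made gene whose groups did not overlap. It stood at 2398.3, 2144.1, 2202.6, 2289.6 and 2400.4 in the livers labelled Msr1-/-, against 1951.5, 1742.9, 1370.5 and 1867 in wild type, where 3.3% of all tested genes were higher in each liver labelled Msr1-/-. The log2 fold change was 0.41 ± 0.12 SE, and it did not pass in limma (adjusted p = 0.119) but did in DESeq2 (adjusted p = 0.0299), which called 2.37% of all tested genes higher.

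Of the 4 hepatocyte-made lectin route genes none was called. The mannose-binding lectin gene Mbl1 averaged 3627 ± 268 in the livers labelled Msr1-/-, against 4137 ± 991 in wild type, and Mbl2 averaged 8670.5 ± 1145 in the livers labelled Msr1-/-, against 7712 ± 1847 in wild type. The protease gene Masp1 averaged 244.5 ± 74.8 in the livers labelled Msr1-/-, against 212.6 ± 60.9 in wild type, and Masp2 averaged 3254 ± 385 in the livers labelled Msr1-/-, against 2699 ± 697 in wild type. The log2 fold changes of these 4 genes lay between -0.16 and 0.30, and 0 had an unadjusted p under 0.05 in limma. Of the Masp2 exon bases, 54.9% are also exon of Tardbp on the opposite strand, and no strand setting of the counting is given in the sources used here.

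C3, the protein on which all routes meet, stood at 55050 ± 5463 in the livers labelled Msr1-/-, against 60653 ± 9887 in wild type (SD, log2 fold change -0.13, interval -0.52 to 0.26). Per kilobase of exon C3 averaged 10718 in the livers labelled Msr1-/-, against 11809 in wild type. Over all 9 livers the median levels per kilobase were 22855 for Vtn, 10656 for C3 and 10066 for Clu, while those of the C1q genes lay between 631 and 884 and that of Itgam was 2.98. Clu averaged above C3 per kilobase in the livers labelled Msr1-/-, at 10851, and below it in wild type, at 9340. The factor H-related gene Cfhr2 averaged 6415 ± 784 in the livers labelled Msr1-/-, against 5861 ± 1922 in wild type. Reads of Cfhr2 can be shared with its close relatives. Cfi, whose protease product inactivates C3b and C4b, averaged 8553 ± 931 in the livers labelled Msr1-/-, against 9233 ± 2338 in wild type. Cfb had a log2 fold change of 0.04 with a wide interval, -0.85 to 0.93. None of these 4 genes was called.

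Among the terminal pathway genes, wild type 1 and 2 stood above the other 7 livers for the C5 gene Hc, for C8a and C8b, which encode C8 chains of the pore, and for the pore-forming C9. Hc stood at 10971.8, 9991.4, 8319, 9684.6 and 10468.4 in the livers labelled Msr1-/-, against 18398, 18697, 10667.5 and 11348.1 in wild type (log2 fold change -0.54 ± 0.19 SE, limma adjusted p = 0.209). C8b stood at 2775.5, 2683.3, 2622.6, 3498.7 and 5135.5 in the livers labelled Msr1-/-, against 8602.8, 7912.6, 2799.1 and 4697.9 in wild type (log2 fold change -0.76 ± 0.32 SE, limma adjusted p = 0.287). Wild type 3 and 4 lay within or just above the range of the livers labelled Msr1-/- for both genes. C8a lay between 9648.6 and 13067.2 in the livers labelled Msr1-/-, against 19541.1 and 19841.6 in wild type 1 and 2 and 8645.1 and 11731.4 in wild type 3 and 4 (limma adjusted p = 0.615). Hc and C8b were called when wild type 3 was left out, with log2 fold changes of -0.68 and -1.08 (limma adjusted p = 0.0451 and 0.0288). C9 lay between 10244.9 and 16663.9 in the livers labelled Msr1-/-, against 21600.6 and 19288.8 in wild type 1 and 2 and 12768.4 and 12460 in wild type 3 and 4 (limma adjusted p = 0.771). C9, the terminal component gene C6 and C8g, which encodes the third C8 chain, had log2 fold changes between -0.19 and 0.12 and were not called.

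None of the 4 plasma regulators was called. Serping1, which encodes the C1 inhibitor, averaged 14554 ± 777 in the livers labelled Msr1-/-, against 13281 ± 2593 in wild type. C4bp, the C4b-binding protein gene, averaged 9824 ± 1069 in the livers labelled Msr1-/-, against 8989 ± 2184 in wild type. Clu and Vtn encode clusterin and vitronectin, which block assembly of the pore. Clu averaged 19640.2 ± 2932 in the livers labelled Msr1-/-, against 16906 ± 3419 in wild type, and Vtn averaged 38998 ± 5929 in the livers labelled Msr1-/-, against 39721 ± 12156 in wild type. The log2 fold changes of these 4 genes lay between 0.02 and 0.22, and that of Vtn was negative under quantile scaling (-0.14) and without wild type 3 (-0.20).

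Of the 23 hepatocyte-made genes, 0 were called in limma or edgeR and 1 in DESeq2, C1rl, with 4 at an unadjusted p under 0.05 in limma. Of all 12937 tested genes, 1980 had an unadjusted p under 0.05 in limma. The highest of the 9 livers was wild type 1 or 2 for 15 of the 23, where this was so for 25.3% of all tested genes, a count made after the values were seen. Of 15 acute phase genes outside complement, 12 were also highest in wild type 1 or 2, 1 in wild type 3 (Lcn2) and 2 in a liver labelled Msr1-/-. Saa1, a serum amyloid gene, stood at 1812.2, 1103.9, 679.4, 957.7 and 639.2 in the livers labelled Msr1-/-, against 13856.5, 18852, 4789.3 and 1088.1 in wild type (limma adjusted p = 0.0893). Of the 15 genes 13 had a negative log2 fold change (median -0.34) and 0 were called in limma, with 7 at an unadjusted p under 0.05. Among them 2 were called lower in edgeR and 6 in DESeq2, where 0.858% and 3.6% of all tested genes were. The relation of the acute phase to these members was not tested. Of 14 hepatocyte markers, each read in every liver, 6 had a negative log2 fold change (median 0.01).

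**Figure D3:**
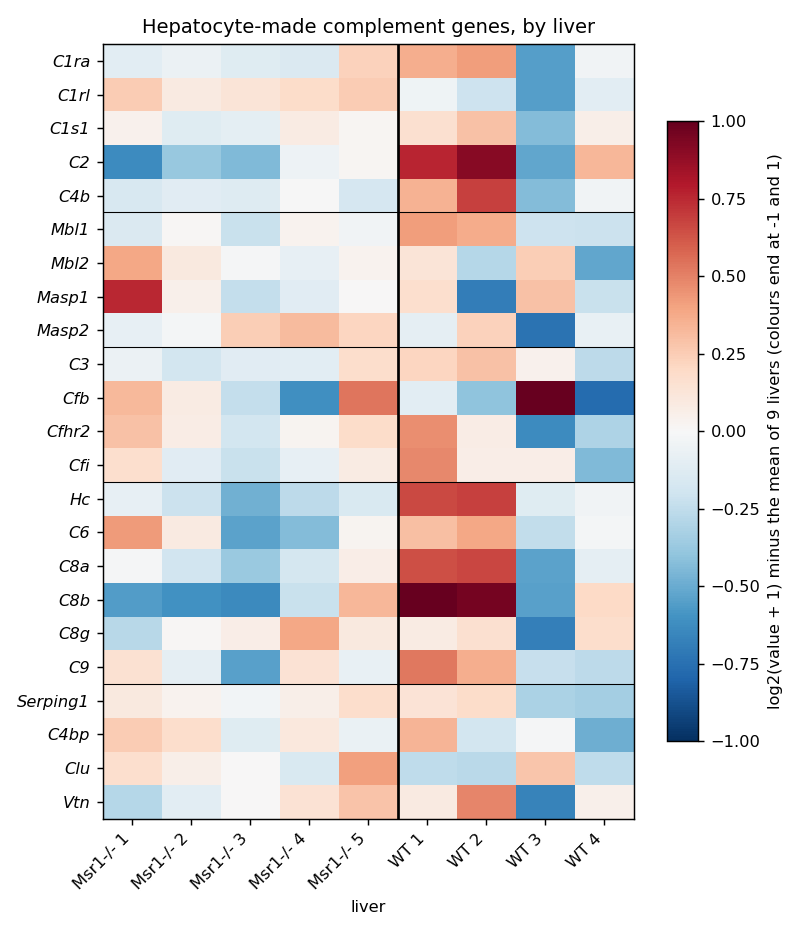
Level of the 23 hepatocyte-made complement genes (rows, in order of route) in each liver (columns, livers labelled Msr1-/- left of the line and wild type right of it), as log2(value + 1) minus the mean of the 9 livers, red for higher and blue for lower. Wild type 1 and 2 are red for C2, C4b, Hc, C8a and C8b, while wild type 3 is the lowest liver in 9 of the 23 rows.

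**Figure D4:**
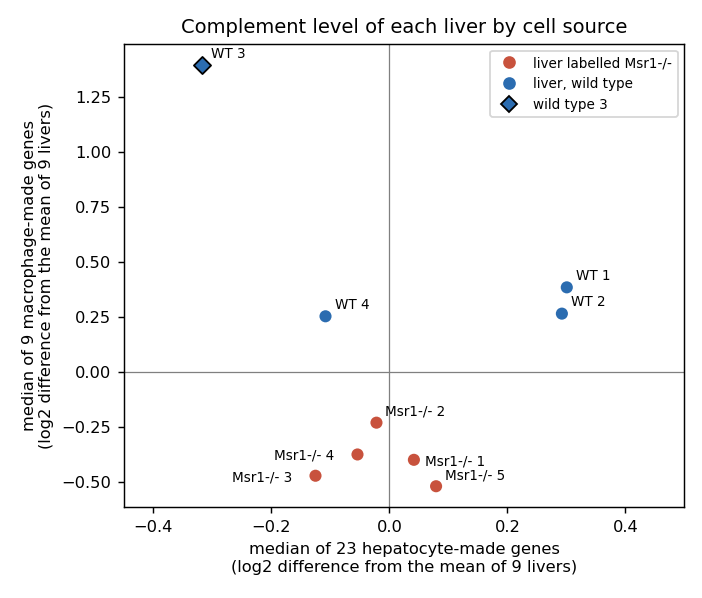
Median log2 difference from the mean of the 9 livers over the 23 hepatocyte-made genes (horizontal axis) and over the 9 myeloid-made genes (vertical axis), 1 point per liver. The livers labelled Msr1-/- lie between -0.52 and -0.23 on the vertical axis and wild type between 0.25 and 1.40. On the horizontal axis the livers labelled Msr1-/- lie between -0.13 and 0.08, inside the wild-type range of -0.32 to 0.30.

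Set side by side in each liver, the median of the myeloid-made genes minus that of the hepatocyte-made genes lay between -0.60 and -0.21 in the livers labelled Msr1-/- and between -0.03 and 1.71 in wild type, or up to 0.36 without wild type 3. These values describe the chosen genes and carry no test. Leaving out wild type 3 moved the median log2 fold change of the myeloid-made genes to -0.73 and that of the hepatocyte-made genes to -0.14.

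Cfd was the only member called higher. It encodes factor D, the protease that cleaves factor B in the alternative route and that is best known as adipsin, a product of adipocytes. Cfd (chromosome 10, 79890853 to 79892655, plus strand) stood at 86.9, 213.3, 328.7, 465.4 and 59.1 in the livers labelled Msr1-/-, against 10.7, 9.5, 11.8 and 65.5 in wild type. Only Msr1-/- 5 lay under wild type 4, and the values within the livers labelled Msr1-/- spread widely. Cfd rose 9.86-fold (log2 fold change 3.30 ± 0.69 SE, limma adjusted p = 0.0436), and edgeR gave an adjusted p of 0.0621. Cfd was called in 3 of the 9 fits with 1 liver left out, those without Msr1-/- 5, wild type 3 and wild type 4, with a log2 fold change between 2.95 and 3.93 and an adjusted p up to 0.113 over the 9.

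Adipoq, a defining adipocyte gene, stood at 1.06, 0, 0.91, 0 and 0 in the livers labelled Msr1-/-, against 2.14, 1.06, 3.14 and 2.85 in wild type. Its reads were too few to be tested. Some other adipocyte markers are also made in liver. Of the 6 that could be tested, 4 had a positive log2 fold change and 0 were called in limma, edgeR or DESeq2 or had an unadjusted p under 0.05 in limma. Wild type 3 weighed on this list, whose median log2 fold change was 0.37 with it and 1.19 without it, when 5 of the 6 were positive, as Cfd was. Without that liver the lipid droplet gene Plin4 had a log2 fold change of 2.03 and was called higher (limma adjusted p = 0.0375). The lipid droplet gene Cidec and the fatty acid-binding protein gene Fabp4 had log2 fold changes of 1.96 and 0.85 and were not called (limma adjusted p = 0.209 and 0.177). Adrb3 went the other way there, at -1.22, and was not called (limma adjusted p = 0.0665). On all 9 livers the log2 fold changes of Cidec and Fabp4 were 0.66 and 0.13 in limma and -1.06 and -0.56 in edgeR. Car3 averaged 109309 ± 18541 in the livers labelled Msr1-/-, against 75420.1 ± 27195 in wild type (limma adjusted p = 0.361). The summed level of the list, nearly all of it Car3, lay between 90204 and 139988 in the livers labelled Msr1-/- and between 40792 and 99625 in wild type. The part of adipocytes or of lipid droplet genes in the Cfd result was not tested.

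**Figure D5:**
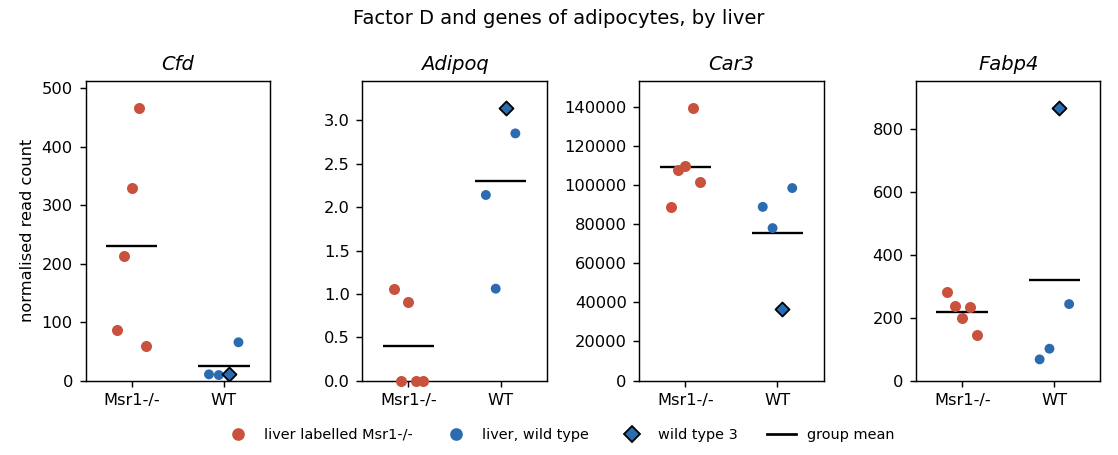
Normalised read count (vertical axes, from 0, each with its own scale) of Cfd and 3 genes used as adipocyte markers, in each liver labelled Msr1-/- (left) and each wild-type liver (right), with the group mean as a line and wild type 3 as a diamond. Cfd spans 59.1 to 465.4 in the livers labelled Msr1-/- and 9.5 to 65.5 in wild type. Adipoq does not exceed 1.06 in the livers labelled Msr1-/- and reaches 3.14 in wild type.

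The other 3 genes of mixed source were not called, and their groups overlapped. Colec11, a collectin of the lectin route, averaged 468.8 ± 42.9 in the livers labelled Msr1-/-, against 555.8 ± 198.0 in wild type. Colec11 was highest in wild type 3, at 847.3. Cd55, which encodes a membrane protein that breaks up convertases, averaged 219.6 ± 38.5 in the livers labelled Msr1-/-, against 221.3 ± 16.6 in wild type. Cd59a, which encodes a membrane protein that blocks the pore and has a close copy, averaged 1279.8 ± 147 in the livers labelled Msr1-/-, against 1236 ± 134 in wild type. Their 95% intervals were -0.61 to 0.23 for Colec11, -0.35 to 0.30 for Cd55 and -0.21 to 0.31 for Cd59a on the log2 scale.

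Of 31 further genes of the pathway, 24 were read from the table and 22 were tested, 11 with a negative and 11 with a positive log2 fold change (median -0.0028). The 1 called gene was Itgal, which encodes a leukocyte integrin alpha chain that pairs with the Itgb2 product. It averaged 114.0 ± 13.8 in the livers labelled Msr1-/-, against 221.0 ± 67.5 in wild type, and fell 1.88-fold (limma adjusted p = 0.0433, called in 2 of the 9 fits with 1 liver left out). DESeq2 called 4 of these genes lower and 1 higher, where 3.6% and 2.37% of all tested genes were called. Leaving out wild type 3, limma called 2 lower, where 2.32% of all tested genes were. These were Itgal and Susd4, which encodes a complement inhibitor. Susd4 stood at 304.2, 426.7, 283.1, 334.4 and 416.8 in the livers labelled Msr1-/-, against 566.7, 740.6, 50.2 and 732.4 in wild type. Its log2 fold change was -0.02 with wild type 3 and -0.95 without it (limma adjusted p = 0.994 and 0.00940). Vsig4, a macrophage receptor for C3 fragments, averaged 378.2 ± 76.8 in the livers labelled Msr1-/-, against 701.0 ± 208.0 in wild type (limma adjusted p = 0.0857). Apcs, the serum amyloid P gene, averaged 697 ± 95 in the livers labelled Msr1-/-, against 1609 ± 824 in wild type (limma adjusted p = 0.131). Calr, whose product calreticulin binds C1q, and Cfhr3, a factor H-related gene, had positive log2 fold changes of 0.45 and 0.66 (limma adjusted p = 0.152 and 0.170).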

How the data were processed

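Liver RNA of 9 mice, 5 labelled Msr1-/- and 4 wild type, was sequenced from TruSeq libraries, per the labels' protocols. STAR, HTSeq, DESeq2 and mm10 are named, without versions, in the submitters' processing notes. The authors deposited a signal per gene and liver, which the steps of the values show to be read counts divided by 1 factor per liver. Dividing by the smallest step of each liver gave whole numbers for 100% of values, within 0.01 reads, and these recovered reads summed to 15006773 to 18238932 per liver. Depth limits counting error alone. Error bars and p-values rest on the spread between animals.

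Groups and animal numbers came from the titles. The members and lists were chosen with earlier results of these data known. Values were taken as log2(value + 1), genes with a mean of 10 or more were tested with limma 3.58.1 (R 4.3.3, intensity trend, genotype only), and p-values were adjusted by Benjamini-Hochberg over 12937 genes. Lists are described by counts and medians, with no test. Named were all 36 members, called genes of the other lists and those of smallest p, with genes outside the members given only where a result turns on them. Susd4, Cidec, Fabp4 and Adrb3 were named after their values were seen. Alternatives were pseudocounts of 0.5 and 5, no filter, a minimum mean of 50, quantile and TMM scaling, array weights, edgeR 4.0.16 and DESeq2 1.42.0 on recovered reads, a block for the animal number, and leaving out 1 liver at a time. The fits of edgeR and DESeq2 without wild type 3 were chosen after seeing the data. On simulated counts of 12937 genes for this comparison, limma recovered 50% of 100 genes changed 2-fold and 85% of 100 changed 4-fold, and 4.93% of 142 calls were false. The simulation drew genes independently and held no atypical library such as wild type 3, so these shares need not hold for the data. No pair of libraries was a duplicate (lowest chi-square per degree of freedom 19.7). Positions and exon lengths came from GENCODE M21, whose assembly GRCm38 is that of mm10 (36 of 36 members matched on symbol), and promoters from RefSeq's GRCm38.p6.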

Additional observations from a re-analysis of the deposited data

Results flagged for a closer look

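Of 72 groups (36 members in each genotype), 6 held a liver whose gap to the nearest other, on the log2 scale, took up more of the group's range than Dixon's 95% critical value allows, where chance flags about 1 in 20 groups. In wild type 3 Itgb2 was high at 286.3, Clu high at 22032.5 and C8g low at 5340, and wild type 4 held the highest wild-type Cfd at 65.5. Among the livers labelled Msr1-/-, C1ra was high in animal 5 at 3535.5 and Cd59a in animal 4 at 1537.7.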

How the results depend on the processing

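Over 21 alternatives, 25 of the 36 members kept the sign of their fold change, all 9 myeloid-made genes among them. Limma called 86 genes higher and 91 lower on all 9 livers, 1 and 2 of them members. The counts were 19 to 332 higher and 17 to 297 lower with 1 liver left out (members 0 to 1 and 0 to 10), 307 and 466 in DESeq2 (members 2 and 8), and 277 and 254 with array weights (8 members lower). With a mean of 50 or more, 58 genes were called lower and 0 members higher, and edgeR also called 0 members higher, Cfd passing in neither. Without wild type 3, edgeR called 304 and 352 (10 members lower) and DESeq2 539 and 520 (members 2 and 12). The median log2 fold change lay between -1.07 and -0.73 for the myeloid-made and between -0.14 and 0.01 for the hepatocyte-made genes with 1 liver left out. The replicate block on 4 pairs called 8 genes higher and 2 lower, with 0 members lower and Cfd higher. Same-numbered animals had deviations correlated at 0.025, -0.077, -0.10 and 0.22, which cannot show whether the numbers pair the animals.

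Members near 0 changed sign. Under quantile scaling C8g, Serping1, Vtn and Cd59a stood at -0.0035, -0.013, -0.14 and -0.0061, and with array weights C8g, Vtn, Cd55 and Cd59a at -0.017, -0.13, 0.0024 and -0.015. Cfb and Vtn stood at -0.14 and -0.031 in edgeR, -0.14 and -0.030 in DESeq2 and -0.090 and -0.053 under the block. Without wild type 3, Cfhr2, C8g, Vtn, Colec11, Cd55 and Cd59a stood at -0.031, -0.077, -0.21, 0.021, 0.010 and -0.028 in edgeR and -0.026, -0.071, -0.21, 0.027, 0.016 and -0.022 in DESeq2. With 1 liver left out, ranges were -0.21 to 0.44 for Cfb, -0.082 to 0.060 for Cd55, -0.20 to 0.18 for Vtn, -0.022 to 0.093 for Cd59a, -0.29 to 0.033 for C1ra, -0.18 to 0.059 for C1s1, -0.24 to 0.063 for Cfi, -0.082 to 0.21 for C8g and -0.30 to 0.032 for Colec11. The cause was not tested. Genes with few reads, such as C5ar1 and Itgam, had the widest intervals among the myeloid-made members.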
